A study of Mus musculus with 6 samples.

Results

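The immediate early genes Fos, Fosb, Jun, Junb, Jund, Egr1, Egr2, Ier2, Ier3 and Atf3 were examined in mouse megakaryocyte-erythroid progenitors, which give rise to platelets and red cells. All 10 listed genes were represented on the arrays, each by 1 probe set carrying a single gene symbol, among 19661 genes tested in all. Cells came from mice homozygous for a knock-in at Fog1 (Fog1ki/ki, 3 arrays), and were set against cells of mice with intact Fog1 (Fog1+/+, 3 arrays). All mice were of the strain B6.129, and all cells were taken from bone marrow by flow cytometry for Kit and against lineage markers, Sca1 and CD34, with low Fc gamma receptors II and III. FOG1, the product of Zfpm1, is a partner protein of the transcription factor GATA1. The labels state neither what the knock-in alters nor the age of the mice, nor how many animals gave each sample. They call the samples biological replicates, and where arrays of a genotype share a source, p-values measure only the spread between these samples.

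Immediate early genes are switched on within minutes of a growth factor, cytokine or stress signal, without new protein synthesis. Signals through MAP kinases and calcium reach serum response factor and its ternary complex partners, or CREB, at their promoters, and the short-lived transcripts encode regulators that shape the later response. FOS and JUN proteins pair through leucine zippers to form AP-1. The same genes are also known to respond to the handling of fresh tissue, such as enzymatic dissociation and cell sorting.

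Promoter sequences are shown for Junb, Fos and Ier3, whose arrays did not overlap between the genotypes. Egr2 is also shown, the member among those searched whose windows held the core of a serum response element. The sequences are RefSeq's on GRCm38.p6 and span 250 bases before to 50 bases after the annotated start, read 5′ to 3′ along the gene, and 8 of the 10 genes matched an entry. Capitals mark matches, on either strand, to TGACG (the core of the cyclic AMP response element), to TATAAA, to GCGNGGGCG (an EGR site), to TGACTCA (an AP-1 site), to the full response element TGACGTCA, which contains that core, and to the CArG box.
Junb promoter, chr8:84978699-84978998, minus strand: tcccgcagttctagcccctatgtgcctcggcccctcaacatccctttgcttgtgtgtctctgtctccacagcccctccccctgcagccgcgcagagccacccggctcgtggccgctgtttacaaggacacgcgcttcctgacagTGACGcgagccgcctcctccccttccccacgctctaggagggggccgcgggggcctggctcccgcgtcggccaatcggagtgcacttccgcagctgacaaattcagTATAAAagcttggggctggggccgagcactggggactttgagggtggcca
Fos promoter, chr12:85473640-85473939, plus strand: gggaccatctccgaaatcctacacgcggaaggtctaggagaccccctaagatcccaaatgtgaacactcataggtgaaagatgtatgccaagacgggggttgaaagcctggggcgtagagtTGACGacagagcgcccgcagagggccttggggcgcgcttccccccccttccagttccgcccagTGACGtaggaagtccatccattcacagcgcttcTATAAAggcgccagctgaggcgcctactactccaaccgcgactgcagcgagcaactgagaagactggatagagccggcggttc
Ier3 promoter, chr17:35821463-35821762, plus strand: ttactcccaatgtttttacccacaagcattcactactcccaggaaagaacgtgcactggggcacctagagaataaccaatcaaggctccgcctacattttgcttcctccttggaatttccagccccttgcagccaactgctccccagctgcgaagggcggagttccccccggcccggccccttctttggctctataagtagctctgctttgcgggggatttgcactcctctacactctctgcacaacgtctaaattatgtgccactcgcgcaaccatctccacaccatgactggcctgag
Egr2 promoter, chr10:67537619-67537918, plus strand: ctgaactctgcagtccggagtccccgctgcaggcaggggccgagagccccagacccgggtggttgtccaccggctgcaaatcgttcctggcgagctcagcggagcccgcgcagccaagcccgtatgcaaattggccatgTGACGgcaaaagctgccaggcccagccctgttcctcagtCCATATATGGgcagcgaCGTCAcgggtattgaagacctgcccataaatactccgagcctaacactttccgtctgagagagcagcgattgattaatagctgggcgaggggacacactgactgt

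Junb and Fos both held TGACG and TATAAA in this window, while the Ier3 window held none of the 6 motifs searched. In Fos, TGACG began at -129 and at -66 from the start and TATAAA at -33. In Junb, TGACG began at -106 and TATAAA at 1. The Egr2 window shown held a CArG box from -72 to -63, with TGACG at -111 on the gene's own strand and at -55 to -51 on the opposite strand. Of the 8 genes searched, 5 held TGACG (Atf3, Egr2, Fos, Fosb and Junb), against 23.0% of 27025 annotated genes. TATAAA was found in 2 of the 8, against 15.7% of all genes, and the CArG box in 1, against 1.81%. GCGNGGGCG was found in Fosb alone among the 8, against 6.27% of all genes. TGACTCA and TGACGTCA were found in none of these 8 windows, against 5.95% and 2.03% of all genes. A match describes these letters only.

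Values are log2 signals after RMA, in which 1 unit is a doubling, and they were compared between arrays and not between genes. The array medians lay between 6.02 and 6.15. Replicate 3 of each genotype stood apart in Y-linked genes: Eif2s3y lay at 3.21 to 3.46 in these arrays against at least 9.29 in the other arrays. Zfpm1 itself had a log2 difference, Fog1ki/ki minus Fog1+/+, of 0.05 (SE 0.13, limma adjusted p = 0.948), which does not check the labels because the change made by the knock-in is not stated. Among 11 measured markers of the gated cells and of erythroid and megakaryocyte cells, 0 passed limma's test, where 0.773% of all genes did. Their mean level was 9.04 to 9.21 in Fog1ki/ki and 9.11 to 9.13 in Fog1+/+. Klf1, a driver of red cell genes, averaged 8.30 ± 0.06 and 8.32 ± 0.05, and Cd34, selected against by the gate, 4.48 ± 0.09 and 4.37 ± 0.03 (SD, n = 3 each, in Fog1ki/ki and Fog1+/+). At an unadjusted p below 0.05, reached by 9.57% of all genes, Kit, which the gate selects for, and Gata1 were lower in Fog1ki/ki (log2 differences -0.38 and -0.29). Nfe2 and Itga2b were higher (0.33 and 0.31). These 4 did not overlap between the genotypes, nor did Tal1 (0.14). Of all genes, 8.31% lay higher and 6.53% lower without overlap.

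No immediate early gene passed limma's test over all genes at an adjusted p under 0.05 (0 of 10), where 0.773% of the 19661 genes did. The smallest adjusted p among them was 0.248. At an unadjusted p under 0.05, 1 was higher in Fog1ki/ki (Ier3) and 1 lower (Junb), where 9.57% of all genes reached that level. In 1 of the 10, Ier3, every Fog1ki/ki array lay above every Fog1+/+ array, as in 8.31% of all genes, and in 2, Junb and Fos, every Fog1ki/ki array lay below, as in 6.53% of all genes. The log2 differences were below 0 in 6 members and above 0 in 4, with a median of -0.16 against 0.02 over all genes tested. In RNA from a sorted population, fewer cells of a type and less RNA per cell cannot be told apart.

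**Figure D1:**
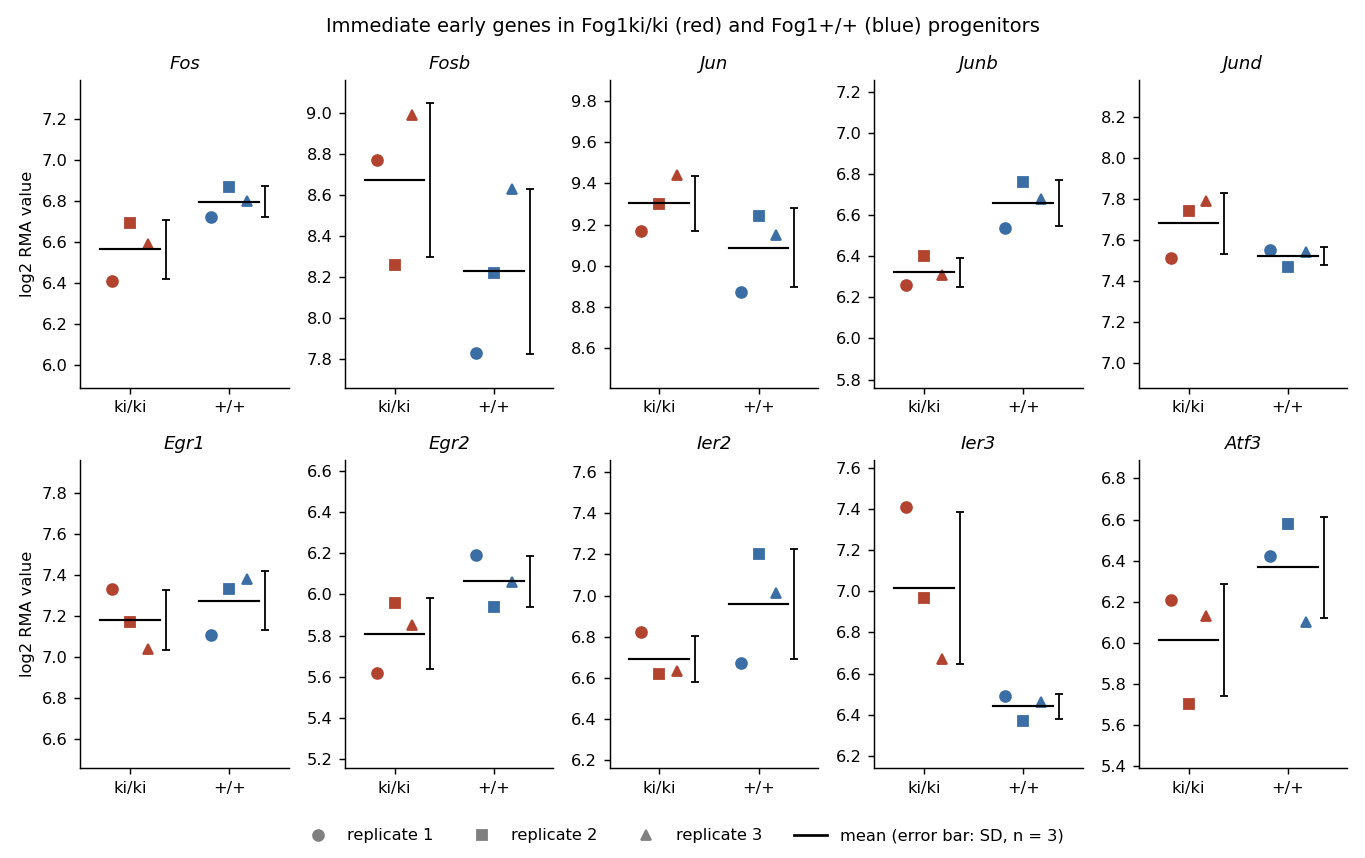
Log2 RMA value of each immediate early gene in every array, with Fog1ki/ki (red) left of Fog1+/+ (blue); symbols mark the replicate, lines the means and bars the SD (n = 3 each). Every panel spans the same number of log2 units. Ier3 separated upwards, Junb and Fos separated downwards, and the other 7 genes overlapped.

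The JUN family members differed in direction. Junb, an AP-1 subunit that can restrain JUN and is known to limit myeloid expansion in mice, measured 6.26, 6.40 and 6.31 in Fog1ki/ki replicates 1 to 3, against 6.54, 6.76 and 6.68 in Fog1+/+. The lowest Fog1+/+ array stood above the highest Fog1ki/ki array. Its log2 difference was -0.34 (SE 0.10, 95% interval -0.56 to -0.12, unadjusted p = 0.00719, limma adjusted p = 0.248), and it was the only member whose difference exceeded the range of values within either genotype (0.14 in Fog1ki/ki and 0.22 in Fog1+/+).

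Jun, the founding subunit of AP-1 and a target of JNK, measured 9.17, 9.30 and 9.44 in Fog1ki/ki and 8.87, 9.24 and 9.15 in Fog1+/+. Fog1+/+ replicate 1 was the lowest, and the remaining 5 arrays overlapped. Jun had a log2 difference of 0.22 (SE 0.12, 95% interval -0.06 to 0.50, limma adjusted p = 0.642), and without Fog1+/+ replicate 1 it was 0.11. Jund, the JUN protein with the steadiest expression in resting cells, measured 7.51, 7.74 and 7.79 in Fog1ki/ki and 7.55, 7.47 and 7.54 in Fog1+/+. Fog1ki/ki replicate 1 lay among the Fog1+/+ arrays while the other Fog1ki/ki arrays lay above them. The log2 difference was 0.16 (SE 0.10, 95% interval -0.07 to 0.39, limma adjusted p = 0.688), at 0.245 without Fog1ki/ki replicate 1 and 0.105 without Fog1ki/ki replicate 3.

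Of the FOS members, Fos, which binds DNA only as a partner of a JUN protein, measured 6.41, 6.69 and 6.59 in Fog1ki/ki, against 6.72, 6.87 and 6.80 in Fog1+/+. The groups did not overlap, but the gap between the nearest arrays was small beside the spread within Fog1ki/ki (range 0.28). The log2 difference was -0.23 (SE 0.10, 95% interval -0.47 to 0.00074, limma adjusted p = 0.527). In both genotypes replicate 2 was the highest and replicate 1 the lowest for Fos as for Junb.

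Fosb, a FOS relative whose truncated isoform persists in stimulated cells, measured 8.77, 8.26 and 8.99 in Fog1ki/ki and 7.83, 8.22 and 8.63 in Fog1+/+. Replicate 3 was the highest in each genotype, and the groups overlapped. Fosb had a log2 difference of 0.45 (SE 0.23, 95% interval -0.07 to 0.96, limma adjusted p = 0.600), the widest interval of the 10. It was 0.25 without Fog1+/+ replicate 1 and 0.29 without Fog1ki/ki replicate 3. Atf3, a bZIP protein of the stress response that mostly represses, measured 6.21, 5.70 and 6.13 in Fog1ki/ki and 6.42, 6.58 and 6.10 in Fog1+/+. Fog1+/+ replicate 3 lay below 2 of the Fog1ki/ki arrays. The log2 difference was -0.35 (SE 0.16, 95% interval -0.73 to 0.02, limma adjusted p = 0.557), shrinking to -0.20 without Fog1ki/ki replicate 2.

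The EGR genes encode zinc finger proteins. Egr1, which carries growth factor and stress signals and is also known from stem cell quiescence, measured 7.33, 7.17 and 7.04 in Fog1ki/ki and 7.11, 7.33 and 7.38 in Fog1+/+. The genotypes overlapped, and the log2 difference was -0.09 (SE 0.11, 95% interval -0.35 to 0.17, limma adjusted p = 0.863). Egr1 was the only member whose sign turned in any of 16 alternative settings, at 0.03 without both replicates 3, and when single arrays were left out its difference ran from -0.175 to -0.02.

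Egr2, known for myelination and for macrophage and T cell programmes, measured 5.62, 5.96 and 5.85 in Fog1ki/ki, against 6.19, 5.94 and 6.06 in Fog1+/+. Fog1ki/ki replicate 2 and Fog1+/+ replicate 2 crossed narrowly. Egr2 had a log2 difference of -0.25 (SE 0.12, 95% interval -0.52 to 0.01, limma adjusted p = 0.552), and -0.16 without Fog1ki/ki replicate 1.

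Ier3, a small protein with roles in survival, which is induced by stress and by NF-kappaB and ERK, had the largest difference of the 10. It measured 7.41, 6.97 and 6.67 in Fog1ki/ki, against 6.49, 6.37 and 6.46 in Fog1+/+. All Fog1ki/ki arrays lay above the Fog1+/+ arrays, but they were themselves far apart, with an SD of 0.37 against 0.06 in Fog1+/+. Ier3 was 1.49-fold higher (log2 difference 0.58, SE 0.17, 95% interval 0.20 to 0.96, unadjusted p = 0.00764, limma adjusted p = 0.254). Without Fog1ki/ki replicate 1 the log2 difference was 0.38 (limma adjusted p = 0.226), and over all 16 alternative settings it ran from 0.38 to 0.76 with adjusted p from 0.0891 to 0.585.

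The mean of the 14 measured mast cell and basophil markers was 6.79, 6.38 and 6.26 in Fog1ki/ki replicates 1 to 3, against 5.35, 5.30 and 5.38 in Fog1+/+. It had the replicate order of Ier3 in the 3 Fog1ki/ki arrays, seen after the values were known. Egr1 had that order too (7.33, 7.17 and 7.04), with a log2 difference of -0.09. Of these markers 5 rose in limma (Ms4a2, Rgs13, Alox5ap, Gata2 and Alox5) and 0 fell. Without any 1 of the Fog1+/+ arrays 3 of these were called (Ms4a2, Rgs13 and Alox5ap), as were 3 markers without both replicates 3 (Ms4a2, Rgs13 and Fcer1a). Of the 5, Ms4a2, a chain of the IgE receptor, had the replicate order of Ier3 in Fog1ki/ki (9.15, 8.64 and 7.80, against 4.74, 4.80 and 4.67 in Fog1+/+). Alox5ap, Alox5 and Gata2 were highest in replicate 1 and lowest in replicate 2, as in the 9.63, 8.67 and 8.86 of Alox5ap, and Rgs13 was highest in replicate 2 (6.73, 6.78 and 6.55). The other 9 markers did not pass over all genes, and their log2 differences were 1.91 for Fcer1a, 1.03 for Mcpt8, 0.53 for Cpa3, 0.21 for Cma1, 0.13 each for Tpsab1 and Prss34, 0.07 for Tpsb2 and 0.06 each for Fcer1g and Hdc. Fcer1a, Mcpt8 and Cma1 had an unadjusted p below 0.05 (0.00247, 0.0455 and 0.0395), with no overlap between the genotypes. The part of these cells in the Ier3 values was not tested.

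Ier2, a nuclear protein of the early response with less settled functions, measured 6.82, 6.62 and 6.63 in Fog1ki/ki and 6.67, 7.20 and 7.01 in Fog1+/+. Fog1+/+ replicate 1 lay within the Fog1ki/ki values and the other Fog1+/+ arrays above them. The log2 difference was -0.27 (SE 0.14, 95% interval -0.59 to 0.05, limma adjusted p = 0.605). It depended on single Fog1+/+ arrays, at -0.415 without replicate 1 and -0.15 without replicate 2.

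**Figure D2:**
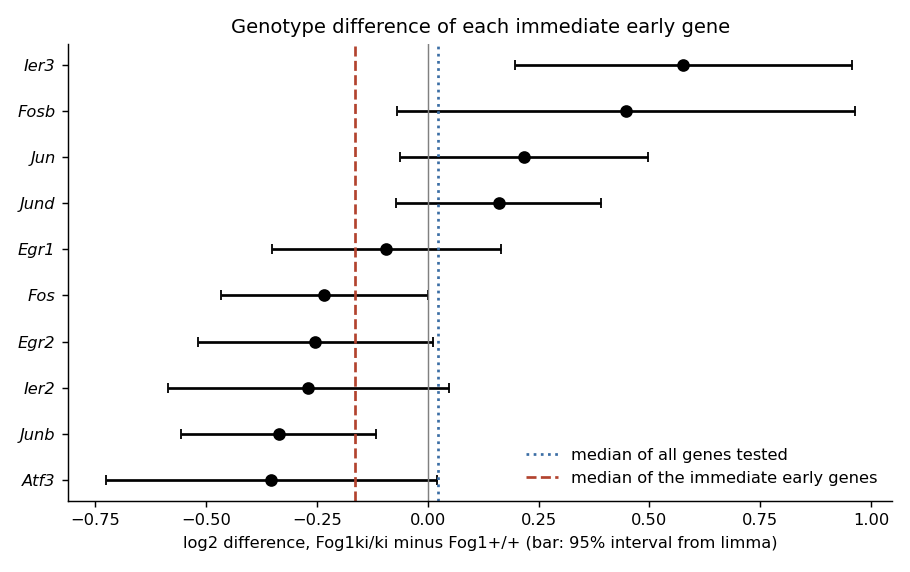
Log2 difference, Fog1ki/ki minus Fog1+/+, of each immediate early gene with its 95% interval from limma, and the medians of these genes (-0.16) and of all genes tested (0.02). The intervals of Ier3 and Junb lie off 0 before any adjustment for the number of genes.

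The spread among arrays of a genotype varied 4.15-fold between members. Fosb had a within-genotype SD of 0.39, larger than in 98.2% of all genes, and Ier3 and Atf3 followed with 0.27 and 0.26, larger than in 92.1% and 91.2%. Ier2 stood at 0.21 (80.4% of genes were smaller). Junb was the steadiest with an SD of 0.09, and 23.6% of genes were smaller still. Fos and Jund, both at 0.11, also lay under the median gene. The median over the 10 was 0.16, against 0.14 over all genes, and 7 of the 10 exceeded the median gene. In 9 of the 10, Junb being the exception, the range of values within at least 1 genotype exceeded the difference between the genotype means. The share of all genes with such a range was not computed, so this count is not a trait particular to the members.

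**Figure D3:**
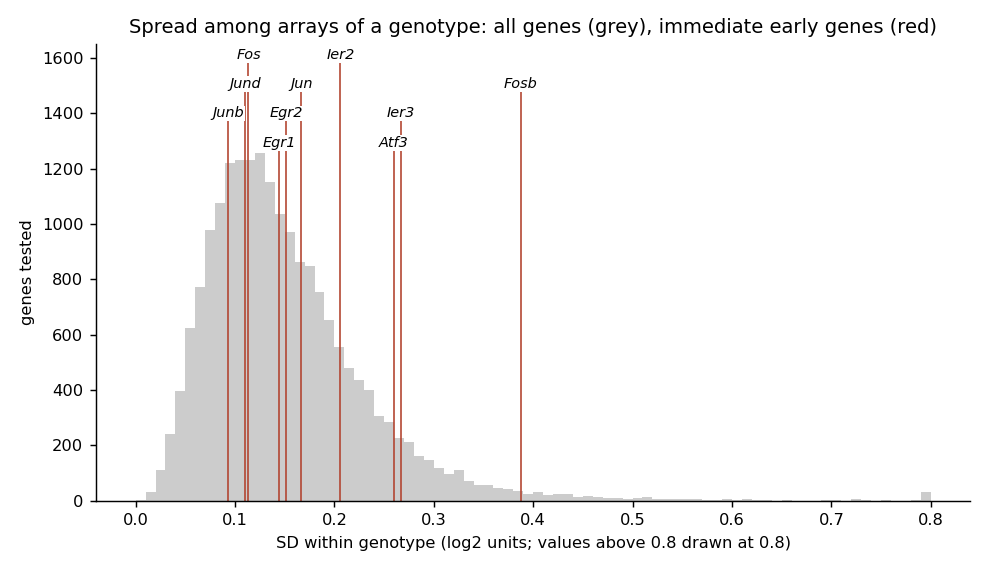
Distribution over all genes tested of the SD within genotype, in log2 units (grey), with the immediate early genes marked in red. Fosb, Ier3 and Atf3 lie in the upper tail, and Junb, Jund and Fos below the middle.

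In all, 6 of the 10 had the larger SD in Fog1ki/ki, where 64.7% of all genes did. Ier2 was among the exceptions, with an SD of 0.11 in Fog1ki/ki and 0.27 in Fog1+/+. No array was the highest or the lowest of its genotype for all members. Fog1+/+ replicate 1 was the lowest of its genotype for 6 genes (Fos, Fosb, Jun, Junb, Egr1 and Ier2) and the highest for 3. Fog1+/+ replicate 2 was the highest for 5. Within Fog1ki/ki, replicate 1 was the highest for 4 (Egr1, Ier2, Ier3 and Atf3) and the lowest for 5 (Fos, Jun, Junb, Jund and Egr2). Averaged over the 10 genes, the arrays lay at 7.15, 7.08 and 7.14 in Fog1ki/ki and at 7.04, 7.20 and 7.18 in Fog1+/+.

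**Figure D4:**
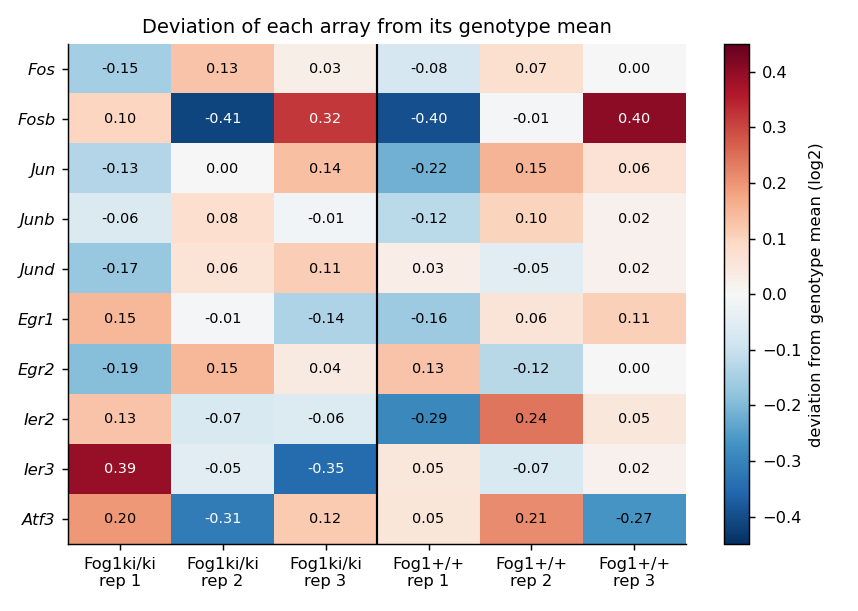
Deviation of each array from the mean of its genotype, in log2 units, for each immediate early gene, with Fog1ki/ki in the left columns and Fog1+/+ in the right columns. Fosb, Ier3 and Atf3 deviate the most, and no column has a single colour.

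Genes whose values over the 6 arrays were most like the mean of the members, each centred on its own mean, were Nthl1, a DNA repair glycosylase (Pearson r = 0.996, Spearman rho = 0.943), Rabggtb, a subunit of the enzyme that lipidates Rab proteins (r = 0.990, rho = 0.943), and Spidr, a scaffold of DNA repair (r = 0.982, rho = 1). The exocyst gene Exoc6b (r = 0.979, rho = 0.943) and the claudin Cldn13 (r = 0.978, rho = 1) came next. The mean profile spanned only -0.09 (Fog1+/+ replicate 1) to 0.07 (Fog1+/+ replicate 2), and the genes were picked as the closest among all genes not dim over the same arrays, so the coefficients are descriptions. The log2 difference of Nthl1 was -0.03 and that of Cldn13 -0.03.

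Other genes of the pathway likewise gave no call in limma, which called 0.773% of all genes. In lists of this size, here and below, 0 calls is near that share. Among the 15 AP-1 partners and relatives, 0 passed, with 0 at an unadjusted p under 0.05, where 9.57% of all genes reached that level. Their log2 differences ran from -0.21 to 0.36 (median 0.02). Atf7, a JUN partner, had the smallest p of these (0.36, SE 0.17, limma adjusted p = 0.573). Among the 5 EGR relatives and corepressors, 0 passed and 0 had an unadjusted p under 0.05 (median 0.18). Egr3 measured 7.24, 7.17 and 7.30 in Fog1ki/ki, against 7.06, 7.08 and 7.04 in Fog1+/+, groups that did not overlap (log2 difference 0.18, SE 0.09, limma adjusted p = 0.583).

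Among 14 other transcription factors of the early response, 0 passed (median 0.02). At an unadjusted p below 0.05 the counts were 3 higher and 2 lower, where 9.57% of all genes reached that level. Klf6, a Kruppel-like factor, measured 7.94, 7.74 and 7.73 in Fog1ki/ki, against 6.43, 7.18 and 7.20 in Fog1+/+. The groups did not overlap, with Fog1+/+ replicate 1 well below the rest (log2 difference 0.87, SE 0.19, limma adjusted p = 0.121). Among 32 feedback and RNA decay genes, 0 passed (median -0.02). With an unadjusted p below 0.05, 1 was higher and 4 were lower, beside the same 9.57% of all genes. Dusp6, the phosphatase that switches off ERK, measured 6.63, 6.44 and 6.45 in Fog1ki/ki, against 6.91, 7.07 and 6.92 in Fog1+/+ (log2 difference -0.46, SE 0.10, limma adjusted p = 0.102).

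Upstream, 0 of 18 measured kinases and transcription factors passed (median 0.0017). An unadjusted p below 0.05 was found for 1 higher and 0 lower, where 9.57% of all genes reached that level. The smallest p was that of Mrtfb, an actin-sensing coactivator of serum response factor (log2 difference 0.29, SE 0.11, limma adjusted p = 0.433). Of the heat shock genes, which also answer to cell handling, 7 had a probe set of their own and 0 passed limma over all genes. An unadjusted p below 0.05 was found for 0 higher and 3 lower, beside the same 9.57% of all genes. Their log2 differences ran from -0.58 to -0.17 (median -0.28). Averaged over these 7, the arrays lay at 10.2, 10.4 and 10.3 in Fog1ki/ki, against 10.6 in each Fog1+/+ array. Hsph1, an HSP110 chaperone, measured 10.81, 10.83 and 11.14 in Fog1ki/ki, against 11.16, 11.33 and 11.18 in Fog1+/+ (log2 difference -0.30, SE 0.12, limma adjusted p = 0.438). The immediate early genes did not share 1 direction, with 6 below 0 and 4 above 0. Whether the handling of the cells had a part in the heat shock or immediate early gene values was not tested.

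**Figure D5:**
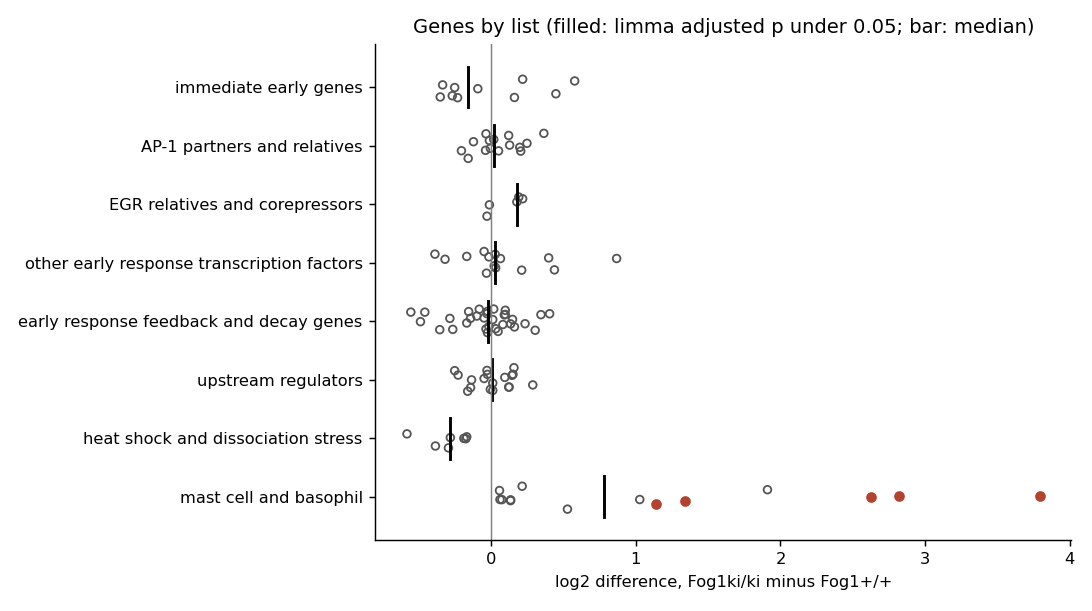
Log2 difference, Fog1ki/ki minus Fog1+/+, of every measured gene of the immediate early, pathway, heat shock, and mast cell and basophil lists. The other marker lists are not drawn. Filled points passed limma over all genes, open points did not, and bars are medians. Filled points occur only among the mast cell and basophil markers (5 of 14), and the 7 heat shock genes lie below 0.

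Junb, Jund and Ier2 lie on chromosome 8, as does Zfpm1, with 320, 470 and 338 tested genes between each of them and Zfpm1, and Junb and Ier2 are 17 tested genes apart. Of 941 tested genes on that chromosome, 12 passed limma (1.28%, against 0.773% of all genes). Every Fog1ki/ki array lay above every Fog1+/+ array in 8.71% of them and below in 7.55%, against 8.31% and 6.53% of all genes, and their median log2 difference of 0.02 was that of all genes.

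The size of difference that 3 arrays per genotype can resolve bounds these results. In simulated data, the SDs within genotype were shuffled over genes, with 1 SD for both genotypes. There limma recovered 15 of 50 genes changed by 0.5 on the log2 scale and 44 of 50 changed by 1. This recovery is over genes of any spread and not that of the members, 7 of which exceeded the SD of the median gene. The log2 differences of 9 of the 10 members were below 0.5 in size, and Ier3 was the exception.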

How the data were processed

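Trizol RNA of sorted progenitors was amplified with NuGEN's WT-Ovation Pico system and hybridised to 1-colour arrays, 1 per sample, per the labels' protocols. The deposited values were taken as log2 from their range, and the authors used RMA, per the submitters' processing notes, with software and settings not given in the sources used here. RMA compresses differences of dim probe sets.

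Of 25668 probe sets, 20777 had 1 gene in the platform annotation, 232 several and 4659 none. For 564 genes with several, the brightest over all arrays was kept. The 10 members all lay above the mean lower quartile of the arrays (4.865), which does not show that each was expressed. Egr2, for one, averaged 5.81 in Fog1ki/ki and 6.06 in Fog1+/+, beside array medians of 6.02 to 6.15. Whether the dimmer members, Junb and Fos among them, stood above background was not tested.

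The test between genotypes was that of limma 3.58.1, run in R 4.3.3 (lmFit, eBayes, two-sided, genotype only), Benjamini-Hochberg adjusted over 19661 genes, called under 0.05. An exact permutation test of 3 against 3 cannot go below p = 0.1 and was not used. Scripts were tested on simulated data, where 7 of 19461 unchanged genes were called. Motifs and tables used Python 3.11.15 with pandas 2.3.3, and figures matplotlib 3.10.9.

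The members and lists were chosen with earlier results of these data known. Named genes are the 10 members, Zfpm1, the smallest p of each pathway list and the 5 genes most like the members' mean; marker genes and those under other observations were picked after their values were seen. In the list of upstream regulators, older names of Mrtfa and Mrtfb appear beside the current ones.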

Additional observations from a re-analysis of the deposited data

How the results depend on the processing

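No member passed limma in any of the 17 alternative settings (0 of 10 in each), with the smallest adjusted p between 0.0891 (Ier3, without Fog1ki/ki replicate 3) and 0.585. The settings were quantile normalization repeated, centring on medians, no dim genes, array weights, averaged probe sets, all probe sets, the replicate block, an intensity trend, a term for replicates 3, no replicates 3, a threshold of 0.1 and leaving out each array. The direction of 9 members was the same in the 16 settings that refit the data, Egr1 being the exception. The median of the members ran from -0.22 to -0.09. Averaged probe sets, all probe sets, no dim genes and the intensity trend could not move a member's log2 difference. Nor could the replicate block or the term for replicates 3. Only the other settings could change a direction. Genes called among all genes numbered 152 (74 higher, 78 lower), 116 with arrays centred (43 higher, 73 lower), 60 to 134 without any 1 array, and 24 without both replicates 3, which leaves 2 arrays per genotype. Without Fog1ki/ki replicate 1 the split was 55 higher and 79 lower, and without Fog1ki/ki replicate 3 it was 62 higher and 42 lower. The replicate numbers were not taken to pair the samples. Same-numbered arrays had correlations of deviations of 0.07, -0.01 and 0.13 for replicates 1 to 3. Fog1ki/ki replicates 1 and 3 correlated best with the Fog1+/+ array of their own number, and Fog1ki/ki replicate 2 with Fog1+/+ replicate 1. With the replicate block 133 genes and 0 members were called. The number of arrays limits the precision.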

Other observations

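Among the other early response genes, the 2 C/EBP factors on the lists differed in opposite directions, a pattern picked out after the values were seen. Cebpb, a bZIP factor of myeloid cells, measured 6.56, 6.82 and 6.66 in Fog1ki/ki, against 6.10, 6.19 and 6.44 in Fog1+/+ (log2 difference 0.44, SE 0.12, limma adjusted p = 0.214). Cebpd, its relative, measured 4.98, 5.44 and 5.24 in Fog1ki/ki, against 5.62, 5.64 and 5.57 in Fog1+/+ (log2 difference -0.39, SE 0.12, limma adjusted p = 0.303). The genotypes did not overlap in either gene, and neither passed limma. Such separation was seen upwards in 8.31% of all genes and downwards in 6.53%. Nr4a2, an orphan nuclear receptor of the early response, measured 6.90, 6.87 and 6.68 in Fog1ki/ki, against 7.03, 7.23 and 7.15 in Fog1+/+ (log2 difference -0.32, SE 0.10, limma adjusted p = 0.314). Its relatives on the list did not share that direction, with log2 differences of 0.21 for Nr4a1 and 0.03 for Nr4a3, and neither passed limma.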
